A study of Mus musculus with 4 samples.

Results

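The genes described here are 54 genes of DNA replication and deoxynucleotide synthesis, measured in primary kidney tubular cells of wild type and SerpinB2-/- mice. They were chosen by name, with earlier results of these data known. The names were those of genes for origin licensing, the replication fork, its polymerases and the supply of DNA precursors. A probe counted as detected where the scanner software flagged its spots as well above background on both arrays of a genotype. This held for 53 of the 54 genes, which are among the 18392 genes tested, each represented by its brightest detected probe. Each genotype had 2 samples, each on its own one-colour array. All mice were males of 8 weeks with a B6.J background, and both genotypes were treated with the protein kinase C activator PMA at 100 ng/ml. The wild type cells carried an intact Serpinb2, the gene for plasminogen activator inhibitor-2. The SerpinB2-/- cells lacked it, and the labels do not say which part of the gene was removed. The series held no untreated cells. The labels do not say whether the 2 samples of a genotype came from separate cultures or animals, so all p-values measure only the spread between these samples, which may be technical.

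Before a cell can copy its genome, the origin recognition complex, Cdc6 and Cdt1 load the ring-shaped MCM helicase onto DNA, a step called licensing. A kinase made of Cdc7 and Dbf4 then lets Cdc45 and the GINS complex join the helicase, and polymerases, primase, a sliding clamp and its loader follow behind it. Many of these genes are switched on by E2F transcription factors at the passage from G1 to S phase, and in the healthy kidney tubule few cells divide until an injury makes the epithelium proliferate.

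The E2F octamers TTTCCCGC, TTTGGCGC, TTTCGCGC and TTTGCCGC were searched on both strands in promoter windows of 300 bases, from 250 bases before an annotated start site to 50 bases after it. The windows were those of RefSeq (build GRCm38.p6), where 45 of the 54 genes had an entry. Of these 45 genes, 17 held at least 1 octamer (37.8%). The octamers occurred in 4.25% of the 12002 genes tested that had a window. Counted by window, they occurred in 30.4% of the 56 windows of the 45 genes. They occurred in 2.26% of all 32851 RefSeq windows, a wider set that includes genes not tested here. The stretches below are shown because they carry the letters that recur in this gene group. Each is 80 bases long, lies upstream of the start site and is written in the direction of the gene, with the octamer or its reverse complement in capitals. Adjoining capitals in Mcm5 and Mcm6 are 2 overlapping octamers, 1 on each strand.

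Cdc6, chr11:98907977-98908056, plus strand: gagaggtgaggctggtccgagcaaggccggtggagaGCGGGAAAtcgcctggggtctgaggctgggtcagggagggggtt

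Orc1, chr4:108579374-108579453, plus strand: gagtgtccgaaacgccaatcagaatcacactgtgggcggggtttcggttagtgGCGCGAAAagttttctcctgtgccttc

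Mcm5, chr8:75109322-75109401, plus strand: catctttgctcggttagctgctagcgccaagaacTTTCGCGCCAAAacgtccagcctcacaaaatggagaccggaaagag

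Mcm6, chr1:128359741-128359820, minus strand: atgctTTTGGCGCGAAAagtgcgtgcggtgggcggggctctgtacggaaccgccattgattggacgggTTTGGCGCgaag

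Gins3, chr8:95633479-95633558, plus strand: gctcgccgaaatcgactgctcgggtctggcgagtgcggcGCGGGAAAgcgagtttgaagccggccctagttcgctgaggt

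Pola1, chrX:93632250-93632329, minus strand: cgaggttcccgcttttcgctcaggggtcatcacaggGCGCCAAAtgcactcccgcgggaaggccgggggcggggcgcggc

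Uhrf1, chr17:56304092-56304171, plus strand: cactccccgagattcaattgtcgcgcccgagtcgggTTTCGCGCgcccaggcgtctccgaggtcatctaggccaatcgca

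The 17 genes were Cdc6, Cdt1, Orc1, Mcm3, Mcm5, Mcm6, Mcm7, Gins3, Pola1, Pold1, Pold3, Pole2, Rfc3, Lig1, E2f2, Uhrf1 and Dnmt1. Their windows held 24 octamers, of which 15 began no farther than 100 bases upstream of the start site or lay downstream of it. The CHR hexamers TTTGAA and TTCGAA, letters known from genes of late cell cycle phases, were found in 26.7% of the replication genes and in 16.9% of all genes tested. The CCAAT box was found in 27 of the 45 replication genes and in 42.4% of all genes tested. Of the 45 genes, 9 had more than 1 window. Over the 36 genes with a single window, the shares were 33.3% for the octamers (3.91% of all genes tested with 1 window), 16.7% for the hexamers (14.4%) and 58.3% for the CCAAT box (38.9%). The windows of the replication genes had a median GC content of 61.3% and a median of 24 CG dinucleotides, against 59.7% and 18 for all genes tested, and the part of base composition in these shares was not tested. A match is a description of the letters and not a binding site.

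**Figure D1:**
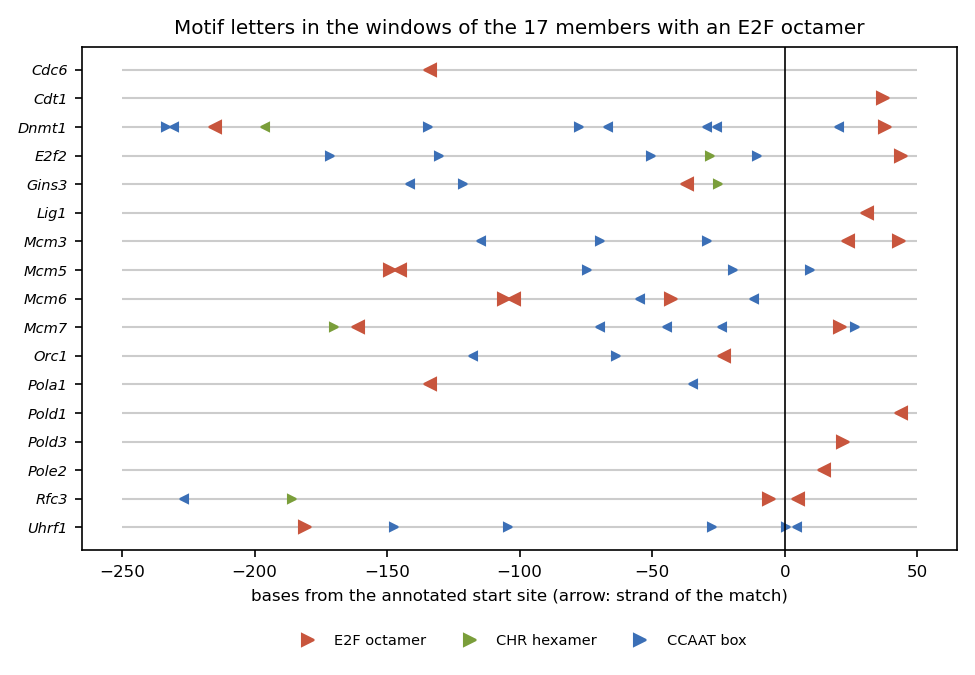
Positions of the E2F octamers, CHR hexamers and CCAAT boxes in the promoter windows of the 17 replication genes with an octamer, as bases from the annotated start site (vertical line). Arrows give the strand of the match relative to the gene, and genes with several windows show the matches of all of them. The 24 octamers lie between -219 and 40.

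Replication transcripts were higher in SerpinB2-/- cells. Of the 53 genes tested, 43 rose and 10 did not pass the threshold, an adjusted p of 0.05 by limma with Benjamini-Hochberg adjustment over all 18392 genes. Of all genes tested, 6.01% rose and 9.67% fell, 15.7% in all. The rises lay between 1.23-fold and 1.80-fold (0.30 to 0.85 on the log2 scale, with standard errors of 0.06 to 0.13 and 2 samples per genotype), and none of the 53 reached 2-fold. None fell past the threshold by limma, and 1 gene, Cdc7, was lower at an unadjusted p under 0.05. The median log2 change was 0.46 over the replication genes and 0.01 over all genes.

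On the 4 arrays the pattern was the same for nearly every gene. Both SerpinB2-/- arrays lay above both wild type arrays for 52 of the 53 genes (98.1%), as they did for 32.5% of all genes tested. The exception was Cdc7, for which both lay below, as they did for 31.9% of all genes. A log2 change above 0 was measured for 52 of the 53 genes and for 51.2% of all genes. The median signal of the 53 genes, as a log2 value relative to the 75th percentile of each array, was 1.2 and 1.24 on the wild type arrays and 1.72 and 1.55 on the SerpinB2-/- arrays. The 2 wild type samples differed by a median of 0.06 and the 2 SerpinB2-/- samples by 0.09, on the log2 scale. By log2 change, 49 of the 53 genes lay in the highest 10% of all genes and 39 in the highest 5%.

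**Figure D2:**
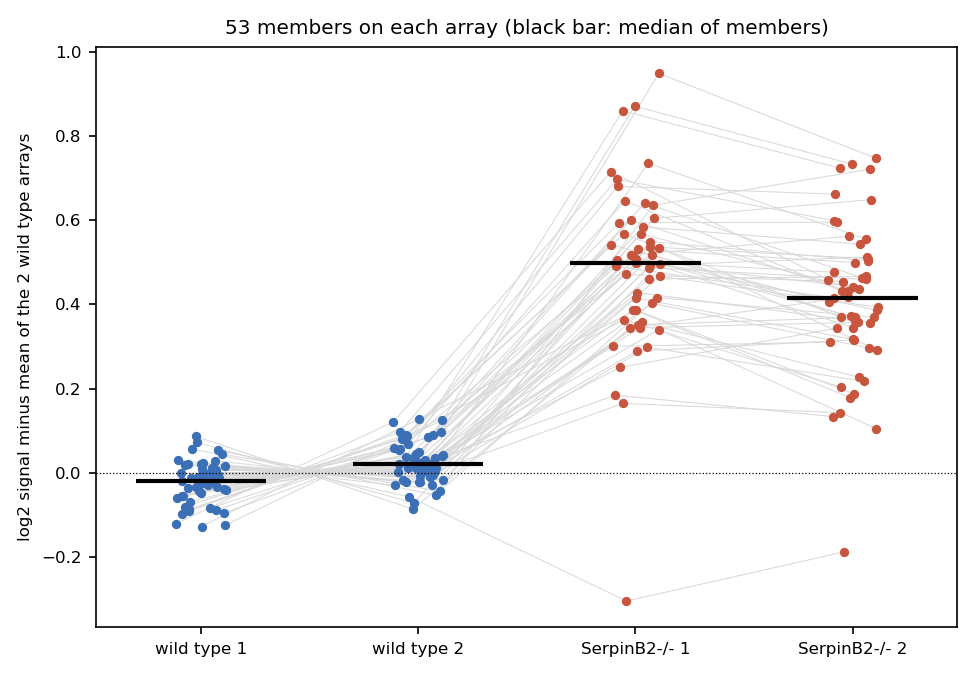
Signal of each of the 53 replication genes on the 4 arrays, as a log2 difference from the mean of the 2 wild type arrays (points, joined per gene by grey lines), with the median of the genes as a black bar. All genes but Cdc7, the point below 0 on both SerpinB2-/- arrays, lie above their wild type values there, and the first SerpinB2-/- array sits above the second for 40 of the 53.

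The adjusted calls rested on all 4 arrays. With 1 array left out, 6 genes rose without wild type replicate 1, 10 without wild type replicate 2, 19 without SerpinB2-/- replicate 1 and 28 without SerpinB2-/- replicate 2. In the same fits, 1.14%, 1.18%, 2.7% and 2.03% of all genes rose. The median change stayed between 0.42 and 0.50 in these fits, and 52 of 53 genes were above 0 in each. The 5 genes that rose whichever array was left out were Prim1, Pole2, Tk1, Dut and Rrm2. No replication gene rose when the variances were not moderated across genes or when dim probes were kept. Without moderation, 0 of all 18392 genes passed the threshold. At an unadjusted p under 0.05 by the unmoderated test, 43 replication genes were higher. At that level 4442 of all genes passed in either direction. With dim probes kept, 29875 genes were tested, of which 1 rose and 2 fell past the threshold. Of the 29875 genes, 5765 passed at an unadjusted p under 0.05 by limma in either direction, and 48 replication genes were higher at that level.

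Among the licensing genes of the origin recognition complex and its partners, 5 of 6 rose. Cdc6, the loader that recruits MCM to origins, showed the largest change of all the replication genes. In the units used here, signal scaled to a common 75th percentile, its probe read 454 and 519 in wild type against 936 and 814 in SerpinB2-/- cells, a rise of 1.80-fold (0.85 ± 0.10 log2, SE, adjusted p = 0.0138). A further Cdc6 probe gave 293 and 326 against 560 and 540.1 (0.83). The groups were well apart at both probes. Geminin (Gmnn), which binds Cdt1 and keeps origins from being licensed again, went from 1711 and 1548 to 2330 and 2402 (0.54 ± 0.07, adjusted p = 0.0164). Orc6, a subunit of the origin recognition complex, went from 9706 and 9977 to 13960 and 13690 (0.49 ± 0.06, adjusted p = 0.0120). These 2 genes had changes close to the median of the whole group. Cdt1 rose by 0.46 and Orc1 by 0.43. The smallest change was that of Orc2, with 964 and 1019 in wild type against 1255 and 1066 in SerpinB2-/- cells (0.22 ± 0.10, adjusted p = 0.183). Its second SerpinB2-/- sample lay only just above the wild type samples.

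The MCM2-7 helicase, a ring of 6 related ATPases, rose as a whole, with all 6 subunits called and changes of 0.39 to 0.59. Mcm5 read 4132 and 4885 in wild type against 7376 and 6175 in SerpinB2-/- cells (0.59 ± 0.13, adjusted p = 0.0431). Its samples were the most spread of the 6 within each genotype. Mcm4 went from 20580 and 21260 to 30220 and 29570 (0.52 ± 0.06, adjusted p = 0.0112). Mcm3 went from 13250 and 13890 to 20570 and 18290 (0.52 ± 0.08, adjusted p = 0.0213), and a second, overlapping Mcm3 probe gave the same change of 0.52. Mcm7, the subunit with the smallest change, went from 15280 and 15660 to 20810 and 19870 (0.39 ± 0.06, adjusted p = 0.0205). The log2 ratio of Mcm5 to Mcm7 within an array was higher in SerpinB2-/- cells by 0.19 ± 0.14 (SE, 2 residual degrees of freedom), with overlapping groups. This pair, the subunits with the largest and the smallest change, was not separated beyond its spread.

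Of the 8 genes that turn a licensed origin into an active fork, 5 rose. Mcm10, which helps to activate the assembled helicase, went from 1791 and 1972 to 2941 and 2534 (0.54 ± 0.10, adjusted p = 0.0310). Dbf4, the regulatory subunit of the Cdc7 kinase, went from 953 and 1079 to 1471 and 1443 (0.52 ± 0.08, adjusted p = 0.0207). The groups did not overlap for either gene. Of the 4 GINS subunits Gins1, Gins2 and Gins3 rose, Gins1 from 2184 and 2354 to 3185 and 3024 (0.45 ± 0.07, adjusted p = 0.0206) and the other two by 0.38 and 0.30. Gins4 read 3077 and 2986 against 3398 and 3346 (0.15 ± 0.06, adjusted p = 0.134). The log2 ratio of Gins1 to Gins4, a pair chosen as the largest and the smallest change of the complex, was higher by 0.30 ± 0.08 in SerpinB2-/- cells. Cdc45, the helicase cofactor, differed by 0.28 ± 0.09 (adjusted p = 0.0936).

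Cdc7, the catalytic subunit that Dbf4 activates, was the only gene of the 53 with a value below 0. Its signal was close to the limit of detection, with 35.6 and 32.9 in wild type against 27.7 and 30.02 in SerpinB2-/- cells (-0.25 ± 0.08, adjusted p = 0.0938). On these arrays the lowest signals that counted as well above background were 23 to 24.8. The Cdc7 probe was well above background on both wild type arrays and on neither SerpinB2-/- array. It entered the test only through the wild type samples, so the filter favoured a fall. With normexp background correction, which lifts dim signals by an offset, the change was -0.04. A second Cdc7 probe was well above background on 1 of the 4 arrays and gave 0.04.

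Ccne2, the gene for cyclin E2, fell just outside the filter. Its only probe read 9.37 in wild type replicate 1, little more in wild type replicate 2, and 32.5 and 24.9 in SerpinB2-/- cells. It was well above background on 1 of the 4 arrays, so no change is given for it. Cdc7, at 35.6 and 32.9 in wild type, was the gene just inside the filter. The other 52 genes tested were well above background on all 4 arrays.

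The probes of 3 of these genes are shown as examples. Prim1 and Tk1 rose in every fit that left out 1 array (for Tk1, at its brighter probe, in place of which the second is printed), and Cdc7 was the gene below 0. Positions are those of the deposited files in build mm9.

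Prim1, chr10:127466952-127467011: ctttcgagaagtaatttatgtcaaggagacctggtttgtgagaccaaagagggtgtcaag

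Tk1, second probe, chr11:117683390-117683449: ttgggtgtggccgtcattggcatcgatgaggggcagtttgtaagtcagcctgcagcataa

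Cdc7, chr5:107398228-107398287: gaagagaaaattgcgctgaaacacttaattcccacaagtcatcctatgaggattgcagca

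Polymerases and primase rose in 6 of 9 cases. Prim1, the catalytic subunit of the primase that starts each new strand with RNA, went from 5005 and 5189 to 9320 and 8472, a rise of 1.74-fold (0.80 ± 0.07 log2, adjusted p = 0.00826). Pole2, a subunit of the leading strand polymerase epsilon, went from 933 and 1008 to 1554 and 1534 (0.67 ± 0.07, adjusted p = 0.00919). Pola1, the catalytic subunit of polymerase alpha, went from 3038 and 3101 to 5109 and 4511 (0.65 ± 0.08, adjusted p = 0.0138). For each of them the SerpinB2-/- samples stood clear of the wild type samples by several times the distance between replicates. Pole rose by 0.47, Prim2 by 0.43 and Pold3 by 0.36.

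The smallest change among the subunits of polymerase alpha and primase was that of Pola2. Pola2, the regulatory subunit of polymerase alpha, read 129 and 145 in wild type against 176 and 157 in SerpinB2-/- cells (0.28 ± 0.09, adjusted p = 0.107). Within an array the log2 ratio of Prim1 to Pola2 was 5.28 and 5.16 in wild type against 5.73 and 5.75 in SerpinB2-/- cells. It was thus higher by 0.52 ± 0.06, the widest such gap in any of the 10 complexes compared. In each complex the pair was chosen as the largest and the smallest change, so its gap is a description and has no test. The other two polymerase genes without a call belonged to polymerase delta. Pold2 read 941 and 928 against 1149 and 1086 (0.26 ± 0.06, adjusted p = 0.0531). Pold1, its catalytic subunit, read 4767 and 5669 against 7529 and 6363 (0.41 ± 0.12, adjusted p = 0.0908), and its samples were far apart within both genotypes.

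Genes of the clamp, its loader, ligation and single-strand binding rose in 8 of 11 cases, with a median change of 0.39. Rfc4 and Rfc5 are subunits of replication factor C, which opens the clamp and places it on DNA. Rfc4 went from 4933 and 4742 to 6804 and 6898 (0.50 ± 0.06, adjusted p = 0.0120), and a further Rfc4 probe gave 0.61. Rfc5 went from 4979 and 5164 to 7512 and 6859 (0.50 ± 0.07, adjusted p = 0.0180). The other subunits of the loader were not called, with Rfc1 and Rfc3 at 0.29 each (adjusted p = 0.163 and 0.0529). Rfc2 read 3817 and 3823 against 4341 and 4190 (0.16 ± 0.06, adjusted p = 0.127). The log2 ratio of Rfc4 to Rfc2, chosen in the same way, was higher in SerpinB2-/- cells by 0.34 ± 0.05. Lig1, the ligase that seals Okazaki fragments, went from 5934 and 6445 to 9002 and 8194 (0.47 ± 0.08, adjusted p = 0.0258). The clamp Pcna rose by 0.44, the flap endonuclease Fen1 by 0.39, and the subunits Rpa1, Rpa2 and Rpa3 of the single-strand binding protein by 0.30, 0.44 and 0.31.

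All 5 genes of deoxynucleotide supply rose, and as a group they had the highest median change, 0.63. Tk1, the thymidine kinase that salvages thymidine in dividing cells, went from 4844 and 5098 to 9020 and 8204, a rise of 1.73-fold (0.79 ± 0.07 log2, adjusted p = 0.00866). The second Tk1 probe gave 805 and 784 against 1216 and 1206 (0.61). Dut, which removes dUTP before it can enter DNA, went from 5208 and 4838 to 7797 and 8276 (0.68 ± 0.07, adjusted p = 0.00993). Rrm2, the small subunit of ribonucleotide reductase, went from 21300 and 21660 to 32650 and 33680 (0.63 ± 0.06, adjusted p = 0.00845). In all 3 the distance between genotypes was several times that between replicates. The large subunit Rrm1 rose by 0.56 ± 0.06, and the ratio of Rrm2 to Rrm1 differed by 0.06 ± 0.05. Tyms, thymidylate synthase, had the smallest change of the group, from 219 and 225 to 282 and 285 (0.35 ± 0.06, adjusted p = 0.0229).

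E2f1, E2f2, E2f8 and Ccne1 rose as well. E2f8, an atypical E2F that represses E2F target genes, went from 1454 and 1663 to 2521 and 2355 (0.65 ± 0.09, adjusted p = 0.0168). The activators E2f1 and E2f2 changed by nearly the same amount, E2f1 from 1681 and 1700.0 to 2389 and 2297 (0.47 ± 0.06, adjusted p = 0.0135) and E2f2 from 492 and 506 to 686 and 689 (0.46 ± 0.06, adjusted p = 0.0132). Ccne1, the cyclin partner of Cdk2 at S phase entry, went from 6520 and 6333 to 8569 and 8004 (0.37 ± 0.06, adjusted p = 0.0280). A dimmer Ccne1 probe read 128 and 125 against 153 and 124 (0.12, adjusted p = 0.5 by limma over all probes), with overlapping groups.

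All 4 genes that rebuild chromatin and DNA methylation behind the fork rose. Dnmt1, the maintenance DNA methyltransferase, went from 918 and 1026 to 1465 and 1466 (0.59 ± 0.07, adjusted p = 0.0141). Uhrf1, which brings Dnmt1 to newly copied DNA, went from 8005 and 7933 to 11660 and 11300 (0.53 ± 0.06, adjusted p = 0.0106). Chaf1b, a subunit of the histone chaperone CAF-1, went from 7092 and 7966 to 11720 and 10360 (0.55 ± 0.10, adjusted p = 0.0272). Chaf1a, the large subunit, went from 2268 and 2377 to 3069 and 2851 (0.35 ± 0.07, adjusted p = 0.0349). A second Chaf1b probe, which overlaps the first, gave 0.65. Another Chaf1b probe, not well above background on any array, gave -0.17.

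**Figure D3:**
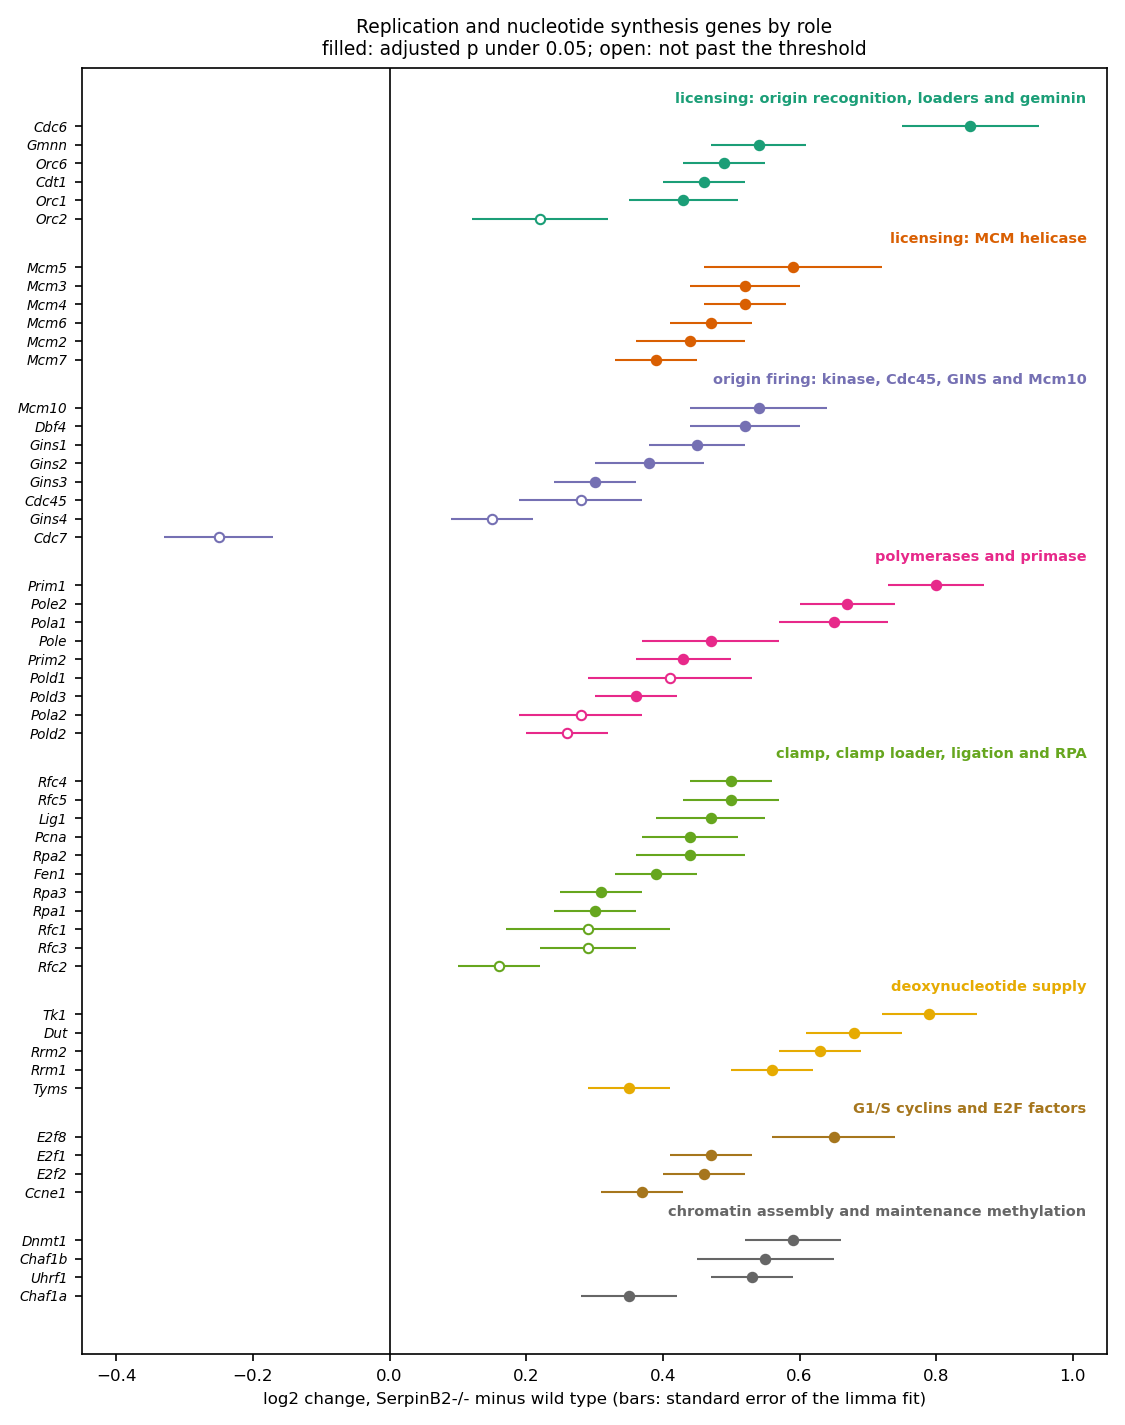
Log2 change of each of the 53 replication genes, SerpinB2-/- minus wild type, with the standard error of the limma fit, ordered within each of 8 roles. Filled points passed the threshold and open points did not. The changes run from 0.15 for Gins4 to 0.85 for Cdc6, with Cdc7 alone below 0 at -0.25.

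Further probes gave a second reading for part of the group. Of the 54 genes, 13 had several probes on the array, and 12 had more than 1 that passed the filter. All passing probes of these 12 genes had a change above 0, and 9 of the 12 further probes rose past the threshold when every probe was fitted by itself. Those that did not were dim probes of Ccne1, Gmnn (0.29) and Prim2 (0.26). Further probes of Uhrf1 and Dut that rose were also dim, at 73.8 and 114.8 in wild type replicate 1. The Ccne1 probe read 128.4 there. Over all passing probes, 3858 of 24174 were called in the fit of every probe by itself, in either direction. Probes of a gene share the RNA of the same 4 samples.

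Genes with and without an E2F octamer had similar changes. The 17 genes with an octamer had a median log2 change of 0.47 (0.29 to 0.85, 15 of them called). The 28 tested genes with a window but no octamer had a median of 0.44 (-0.25 to 0.80, 22 called). Prim1, for example, held none in its window and Cdc6 held 1.

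Other genes of the pathway were taken in 5 lists that hold none of the 54 genes. Of 140 such genes tested, 61 rose, 1 fell and 78 did not pass the threshold, with a median of 0.24. Of 37 other replisome and fork genes 18 rose, led by Dscc1 of an alternative clamp loader (0.84 ± 0.06), the nuclease and helicase Dna2 (0.68 ± 0.10) and the checkpoint mediator Clspn (0.66 ± 0.07). Of 22 genes of the S phase checkpoint and recombination 10 rose, among them the exonuclease Exo1 (0.71 ± 0.08) and Rad54l (0.66 ± 0.06). Of 18 other genes known to peak at the G1/S transition 13 rose, with the chromatin remodeller Hells at 0.83 ± 0.13, Zfp367 at 0.72 ± 0.06 and the centromere gene Cenpu at 0.69 ± 0.06. The medians of these lists were 0.24, 0.38 and 0.49.

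Nucleotide synthesis outside the core deoxynucleotide genes showed a smaller shift. Of 34 such genes 10 rose, and the list median was 0.16. Among them were the deoxycytidine kinase Dck (0.67 ± 0.06) and Pfas of purine synthesis (0.64 ± 0.14). Among 29 genes of the E2F, RB and cyclin-dependent kinase network 10 rose, including Fbxo5, an inhibitor of the anaphase-promoting complex (0.69 ± 0.10), Cdk2 (0.67 ± 0.09) and Ccna2 (0.66 ± 0.07). The 1 gene that fell in the 5 lists was Ccnd1, the gene for cyclin D1, which acts upstream of E2F in G1. It was named after its value was seen. Ccnd1 read 143800 and 158500 in wild type against 108900 and 110200 in SerpinB2-/- cells (-0.46 ± 0.07, adjusted p = 0.0209).

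**Figure D4:**
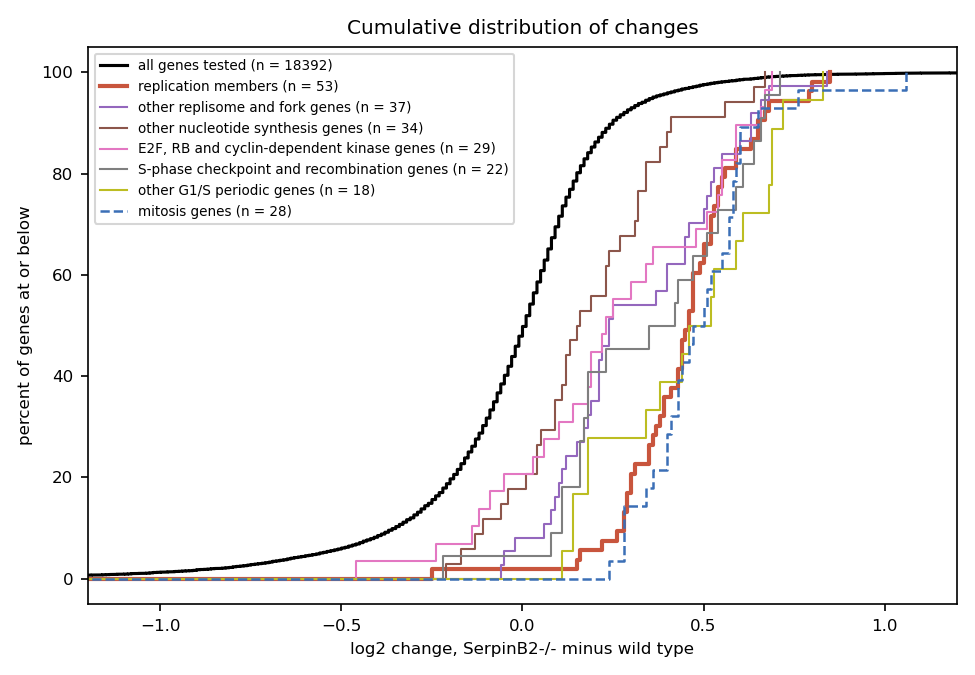
Cumulative distribution of the log2 change for the 53 replication genes, the 5 other pathway lists, 28 mitosis genes and all 18392 genes tested. The replication genes have a median of 0.46, the mitosis genes 0.48, the other nucleotide synthesis genes 0.16 and all genes 0.01.

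Mitosis genes rose beside the replication genes, while markers of several cell types fell. Of 28 mitosis genes 24 rose, with a median of 0.48. The largest changes were those of the kinases Aurkb (1.06 ± 0.08) and Ttk (0.76 ± 0.09). Both probes were dim, and with normexp background correction their changes were 0.47 and 0.49. Among the 24, Cenpf read 26.2 and 28.35 in wild type against 39.1 and 36.0 in SerpinB2-/- cells. Its probe was well above background on neither wild type array. It entered the test only through the SerpinB2-/- samples, so the filter favoured a rise. In bulk RNA, a larger share of cycling cells and more RNA per cycling cell cannot be told apart. The summed signal of the 53 replication genes was 353000 and 358000 in wild type against 498000 and 480000 in SerpinB2-/- cells. For 9 general tubular epithelial markers, all detected, it was 571000 and 570000 against 450000 and 473000, and 5 of them fell. Among the 5 were Cdh1, the epithelial cadherin, at -0.79 ± 0.06 and Epcam at -0.58 ± 0.12. Such sums are weighted to the brightest genes of a list. The keratins Krt18 and Krt8 made up most of this one, at 260900 and 205900 in wild type replicate 1. Krt8 fell (-0.29), and Krt18 did not pass the threshold (-0.23). For 10 detected proximal tubule markers the summed signal was 6840 and 6490 against 6620 and 6920, with a median log2 change of 0. For 5 detected markers of later nephron segments and the collecting duct it was 1750 and 1830 against 947 and 1040. For 15 leukocyte markers it was 29400 and 27300 against 23100 and 22200, and 10 fell. For 10 detected endothelial markers it was 16900 and 16400 against 11900 and 14200, and 8 fell and 1 rose. Among the 8, Tie1 was well above background on both wild type arrays and on 1 SerpinB2-/- array. It entered the test only through the wild type samples, so the filter favoured a fall. For 7 detected urothelial and squamous markers the summed signal was 53100 and 55500 against 31700 and 32400, and 4 fell. For 11 detected fibroblast and pericyte markers it was 309000 and 283000 against 305000 and 316000, and 4 rose and 1 fell. The part of these shifts in cell makeup in the replication result was not tested.

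Markers of the labelled cell type were present in part. All 9 general tubular markers were well above background, and 10 of 12 proximal tubule markers, without Slc5a2 and Slc22a8. The transporters Slc22a6, Slc3a1 and Slc34a1 were close to the limit of detection. They read 35.3, 41.8 and 48.9 in wild type replicate 1, where the lowest signal well above background was 24.8. The brightest of the 10, Lrp2, read 4007 there. Of the 10 proximal tubule markers, 2 rose and 1 fell. Of 12 markers of later nephron segments and the collecting duct, 5 passed the filter, without Umod, Slc12a1, Slc12a3, Calb1, Scnn1b, Scnn1g and Atp6v1b1, and 3 fell. Tek and Erg of the endothelial, Lum of the fibroblast, and Upk1b, Upk2 and Upk3a of the urothelial list did not pass it either.

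Serpinb2 itself read 3207 and 3276 on the wild type arrays. On the SerpinB2-/- arrays it read 5.47 and 7.39, below the level that counts as detected. Between 23409 and 24476 of 39429 probes per array were well above background, no spot was saturated, and the 75th percentile ran from 1902 to 2143 per array. All arrays lay on 1 slide with the wild type arrays at the first positions, so position and genotype cannot be told apart. The split of all calls into higher and lower depended on scaling, with 1105 higher and 1779 lower as scaled here and 4338 higher and 1245 lower with each array scaled to its median. With that scaling the median change of all genes became 0.14 and that of the replication genes 0.60, a distance of 0.46 as before, with 50 of the 53 genes called higher, where 23.6% of all genes were.

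**Figure D5:**
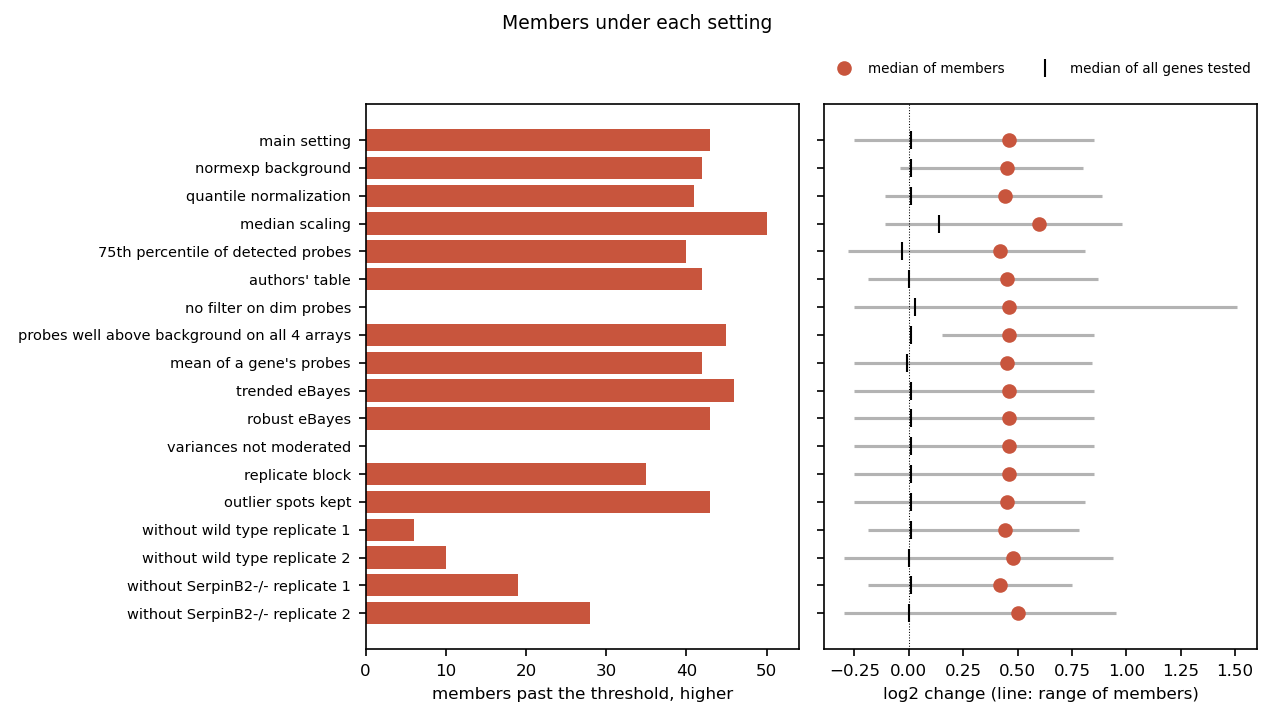
Number of replication genes past the threshold and higher in SerpinB2-/- cells (left) and their median log2 change with the range of the genes as a line and the median of all genes tested as a tick (right), under the main setting and 17 alternatives. The median stays between 0.42 and 0.60 while the count runs from 0 to 50.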

How the data were processed

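Total RNA (150 ng per sample) of PMA-treated primary tubular cells was labelled with Cy3. The deposited intensity values came from Agilent's Feature Extraction software, version 10.7.3.1 per the submitters' processing notes. Per the file headers, spatial and multiplicative detrending and surrogates for dim spots were switched on, and its background correction was switched off. The authors' deposited value table (linear intensity, 75th percentile 1500, lowest value 4) followed the scanner signal by a factor of 0.698 to 0.787 (median per array). How it was made is not given in the sources used here.

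Control spots and outlier spots were left out, and the log2 signals of the 4 spots of a probe were averaged. Each array was centred on its 75th percentile. A probe passed if over 50% of its spots were well above background on both arrays of a genotype. Probes were named through RefSeq accessions (28328 of 39429, 1359 with a new symbol). The contrast SerpinB2-/- minus wild type was fitted over all 18392 genes (limma 3.58.1, eBayes without trend, R 4.3.3). The procedure was tested on simulated data.

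The genes and lists were chosen with earlier results of these data known. In each role, values are given for up to 3 genes past the threshold with the largest change, the gene with the smallest change, and genes or probes in the opposite direction. In each other pathway list up to 3 genes, and in marker lists up to 2, are named, and some genes the rule would name are not reported here. Alternatives covered background, scaling, the authors' table, filters, probes, variance models, the replicate block, outlier spots and each array left out.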

Additional observations from a re-analysis of the deposited data

How the results depend on the processing

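No replication gene changed direction under any of 17 alternatives, and of 900 gene values 671 kept direction and side of the threshold, 214 lost the call and 15 gained it. The 43 genes called higher became 0 with no filter on dim probes and 0 with variances not moderated (48 and 43 at an unadjusted p under 0.05 by limma and by the unmoderated test), and 6 to 28 with 1 array left out. The cause was not tested. The median change over all replication genes tested, 0.46, moved to 0.60 with median scaling. The other pathway genes called higher (61) numbered 100 with median scaling, 0 with no filter and 0 without moderation (74 and 68 unadjusted), and 14 to 44 with an array left out. The 1 called lower (Ccnd1) became 0 with no filter and 0 without moderation (1 and 1 unadjusted), and 0 to 1 with an array left out. The count of all genes called, 2884, became 5583 with median scaling, 3 with no filter, 0 without moderation (4442 unadjusted) and 753 to 1579 with an array left out. With the replicate block, 35 replication genes and 2143 genes in all were called. The numbers in the titles pair no samples by any label, and the differences between replicates 1 and 2 of the genotypes correlated at 0.26 across genes. The precision is limited by the number of arrays, 2 per genotype.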
